A study of Mus musculus with 3 samples.

Results

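The nuclear genes of oxidative phosphorylation were described in RAW264.7 cells, a mouse macrophage line, on 3 expression arrays. The members were all genes whose symbol in the platform annotation begins with Nduf (complex I), Sdh (complex II), Uqcr (complex III), Cox (complex IV) or Atp5 (complex V), for probe sets with 1 annotated symbol. There were 101 such genes among 18820 in all, measured by 136 probe sets: 43 in complex I, 8 in complex II, 7 in complex III, 26 in complex IV and 17 in complex V. A further 3 gene symbols with these prefixes, 1 each in complexes I, III and IV, occur only on probe sets that carry another gene's symbol too, and were left out with them. The prefixes also bring in assembly factors and tissue isoforms, which are given separately below. The cells of each array had received 500 µM of a single fatty acid for 6 hours, bound to serum albumin in a molar ratio of 2 to 1. Oleate is cis and monounsaturated, elaidate is the same chain with a trans double bond, and palmitate is saturated and shorter. With 1 array for each fatty acid and none of untreated cells, there is no replicate error, no test and no interval for any difference below, and a difference between arrays cannot be told apart from one between 2 cultures or 2 hybridisations.

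The respiratory chain passes electrons from NADH through complex I, or from succinate through complex II, to ubiquinone, then through complex III and cytochrome c to complex IV, where oxygen is reduced. Complexes I, III and IV pump protons across the inner mitochondrial membrane, and complex V, the ATP synthase, makes ATP as they return. Most subunits are encoded in the nucleus and imported, while a set of assembly factors builds the complexes without staying in them. In macrophages the balance between this pathway and glycolysis is known to shift with activation.

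Values are log2 expression values, so that a difference of 1 is 2-fold. A difference of 0.32, a ratio of 5 to 4, is used below as the fold limit. Of the 101 genes, 94 passed the filter on low values, a mean over the 3 arrays of at least 4.14 (the median over genes), and 9410 of all genes passed it. No member was above that value on some arrays and below it on others, so none passed only through an array on which it was high. The cells carried the markers of their label: all 9 measured macrophage markers passed the filter, and none was under 7.02 on any array. None of the 4 adipocyte or 4 lymphocyte markers passed it, and of 5 fibroblast markers only Col1a1 did, equal on all 3 arrays. Subunits encoded in mitochondrial DNA were not analysed here.

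The promoters of 4 members are shown because these genes lie on both sides of 0 for palmitate minus oleate. Matches to known regulatory cores in their promoters were the other reason. Cox6a2, the member with the highest difference, has no window here. Atp5k and Uqcrh are among the members furthest below 0 for palmitate minus oleate, Sdhd has the lowest difference in complex II, and Ndufaf4 is the member of complex I with the highest. They were chosen after their values were seen. Each run holds 250 bases before and 50 after the start site, read 5′ to 3′ on the gene's strand, from RefSeq on GRCm38.p6: Atp5k at chr5:108434350-108434649 (minus strand), Uqcrh at chr4:116075021-116075320 (minus), Sdhd at chr9:50603800-50604099 (minus) and Ndufaf4 at chr4:24897833-24898132 (plus). Capitals mark matches on either strand to GCATGCGC, the core of the site of nuclear respiratory factor 1, to CCGGAAG, an ETS core of the kind bound by GABP, and to AAGATGGC, the core of the YY1 site. The last bases of the ETS core and the first of the YY1 core are the same, so these 2 can overlap.
Atp5k: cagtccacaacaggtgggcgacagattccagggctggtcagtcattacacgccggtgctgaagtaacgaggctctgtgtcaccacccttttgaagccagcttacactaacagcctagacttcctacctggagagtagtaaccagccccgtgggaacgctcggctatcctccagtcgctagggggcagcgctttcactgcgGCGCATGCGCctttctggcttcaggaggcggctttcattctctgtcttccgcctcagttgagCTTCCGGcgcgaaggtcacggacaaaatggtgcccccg
Uqcrh: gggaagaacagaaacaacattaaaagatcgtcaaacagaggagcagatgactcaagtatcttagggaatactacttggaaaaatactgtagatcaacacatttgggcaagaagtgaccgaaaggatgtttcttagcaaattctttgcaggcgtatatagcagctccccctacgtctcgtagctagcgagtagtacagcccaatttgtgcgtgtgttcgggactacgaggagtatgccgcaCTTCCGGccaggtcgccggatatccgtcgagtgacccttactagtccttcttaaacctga
Sdhd: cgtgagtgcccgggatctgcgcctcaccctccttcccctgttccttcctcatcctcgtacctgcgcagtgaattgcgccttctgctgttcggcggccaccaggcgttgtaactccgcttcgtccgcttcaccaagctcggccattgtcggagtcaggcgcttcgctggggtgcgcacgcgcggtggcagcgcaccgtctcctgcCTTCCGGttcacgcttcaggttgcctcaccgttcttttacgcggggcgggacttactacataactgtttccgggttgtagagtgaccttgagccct
Ndufaf4: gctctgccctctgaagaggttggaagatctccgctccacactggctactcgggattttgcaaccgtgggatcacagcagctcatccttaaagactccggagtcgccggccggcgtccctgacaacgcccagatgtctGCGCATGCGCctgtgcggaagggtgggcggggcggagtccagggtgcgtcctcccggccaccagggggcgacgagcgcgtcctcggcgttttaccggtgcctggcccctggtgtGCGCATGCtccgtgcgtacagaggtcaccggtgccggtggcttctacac

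In Atp5k the 2 overlapping NRF1 matches, which begin at bases 201 and 203 of the window, make a palindrome, and an ETS match begins at base 263. Uqcrh and Sdhd each hold 1 ETS match, beginning at bases 241 and 205. Ndufaf4, higher on the palmitate array, has the same palindrome at bases 138 and 140 and a further NRF1 match at base 252. Atp5k and Ndufaf4 both hold the NRF1 core, and both were picked after their values were seen. Whether a core goes with the direction of a difference was not tested. A promoter was at hand for 84 of the 101 members. The NRF1 core occurred in 14.3% of them (12 genes), the ETS core in 31.0% (26) and the YY1 core in 14.3% (12), against 6.84%, 22.4% and 5.97% of 7666 genes past the filter and 3.05%, 9.93% and 3.19% of all 27025 genes with such a window. By complex, the ETS core was found in 5 of 38 promoters of complex I, 5 of 7 of complex II, 2 of 5 of complex III, 8 of 19 of complex IV and 6 of 15 of complex V. By role, it was found in 17 of 61 structural subunits (27.9%) and 9 of 17 assembly factors (52.9%). The NRF1 and YY1 cores were each found in 10 of 61 structural subunits and 2 of 17 assembly factors. Of 7 tissue isoforms 4 had a window, Cox6b2, Cox7a1, Cox7b2 and Cox8b, without a match to any of the 3 cores, and Cox6a2 is not among them. A match describes the letters in the window and not binding.

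Most members were slightly lower on the palmitate array than on the oleate array, with a majority in each of complexes I, II, III and V. In complex IV only 11 of 21 were lower past the filter. Without the filter it was 11 of 26, with a median of 0 in that complex. Of the 94 genes, 69 were below 0, 16 were equal and 9 were above, with a median difference of -0.10. All genes past the filter had a median of 0, with 36.8% below 0 and 30.9% above. The differences were small. Past the fold limit, 8 members (8.51%) were lower, beside 11.7% of all genes, and 1 was higher, beside 9.88%. At least 1.5-fold lower were 4 members, beside 4.73% of all genes, and 1 was 1.5-fold higher, beside 4.57%. Among genes past the filter, the members thus stood above all genes in the share below 0, not in the share past a fold limit. Among genes with means at or above 7.44, the lower quartile of the members, 58 of 70 members were below 0 and 6 were lower past the fold limit, beside 41.6% and 13.2% of 4237 genes.

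Palmitate against elaidate gave a like picture, from a comparison that shares the palmitate array. Below 0 were 71 of 94 members, beside 37.9% of all genes, and above 0 were 6, beside 27.9%, with a median of -0.14. Past the fold limit, 9 members were lower, beside 11.4%, and 1 was higher, beside 8.02%. Palmitate held the lowest of the 3 values for 68 of the 94 members, beside 32.7% of all genes. Oleate held it for 9 and elaidate for 2, beside 1784 and 721 of the 9410 genes. Equal on all 3 arrays were 13 members, beside 27.5% of all genes.

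The cis and trans isomers gave little difference in these genes. For elaidate minus oleate 28 members were below 0, beside 24.3% of all genes, 27 equal and 39 above, beside 31.5%, with a median of 0 in every complex. The count below 0 depends on the scaling: after cyclic loess it was 55, or 58.5%, beside 65.8% of all genes. None was lower past the fold limit, beside 0.893% of all genes, and Cox6a2 alone was higher past it, beside 2.67%. The differences of the other 93 genes lay between -0.15 for Atp5d, the delta subunit of the ATP synthase, and 0.26 for the complex I accessory subunits Ndufb3 and Ndufs5. Without replicate arrays these values bound no difference between the isomers.

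**Figure D1:**
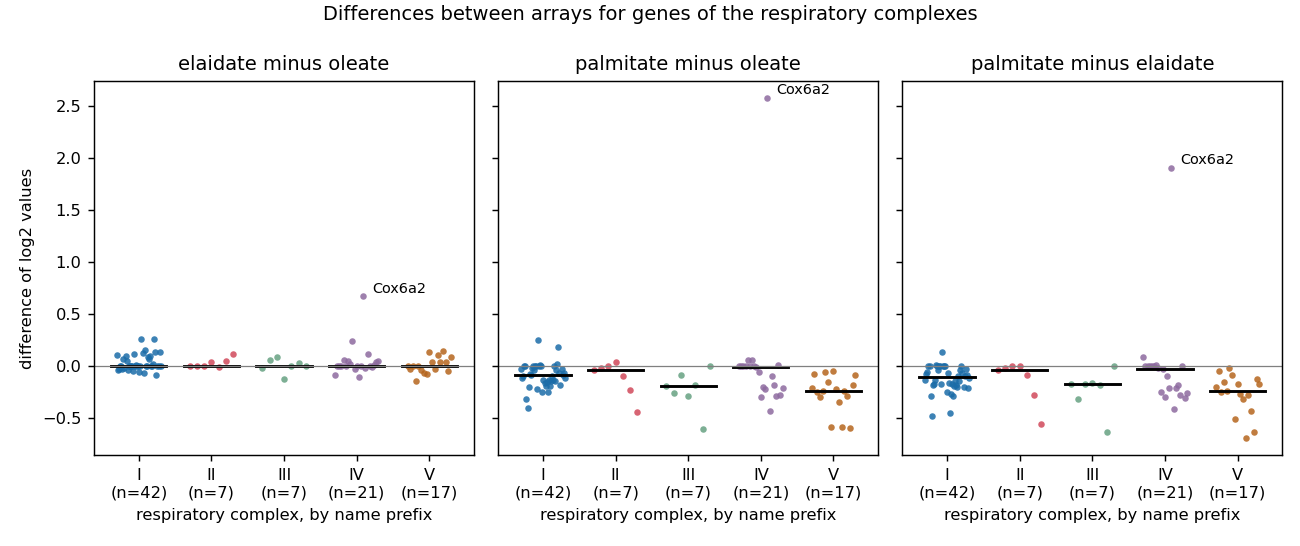
Differences of log2 values (vertical axis) for the 94 members past the filter, by complex (horizontal axis), in the 3 comparisons; each point is a gene and each bar the median of its complex. For elaidate minus oleate all medians are 0, for palmitate minus oleate every point of complex V lies below 0, and Cox6a2 stands above all other members in each panel.

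By prefix, the medians for palmitate minus oleate ran from -0.24 in complex V through -0.19 in complex III, -0.09 in complex I and -0.04 in complex II to -0.01 in complex IV. For palmitate minus elaidate they were -0.24, -0.18, -0.10, -0.03 and -0.03 in the same order, and complexes II and IV exchanged places when each gene was read from its probe set with the highest mean or when Ndufa4 was counted in complex IV. By the means of their probe sets, all 17 ATP synthase genes and 6 of 7 complex III genes were lower with palmitate than with oleate. The complex III symbol left out for its shared probe sets would not have followed: 1 of these stood at 10.24 with oleate, 10.30 with elaidate and 10.34 with palmitate, a difference of 0.09, and the other was equal on all 3 arrays. The counts were 30 of 42 in complex I, 5 of 7 in complex II and 11 of 21 in complex IV. The order depends on which genes a prefix takes in. With structural subunits alone, the median of complex IV against oleate was -0.22 in place of -0.01, next to -0.24 in complex V, -0.19 in complex III, -0.16 in complex II and -0.10 in complex I. Against elaidate, complex IV then had the lowest median, -0.26, below complex V.

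Subunits and the assembly factors under the prefixes lay apart. Of 71 structural subunits past the filter, 64 were lower with palmitate than with oleate, 5 were equal and 2 higher, with a median of -0.15 and differences from -0.61 to 0.18. Of 19 assembly factors under the prefixes, 3 were lower, 11 equal and 5 higher, with a median of 0 and a range from -0.22 for Ndufaf3 to 0.25 for Ndufaf4. Equal values were commoner among genes of low mean, so each group was also set beside all genes in its own range of means. In the range of the assembly factors, 4.88 to 8.97, 36.6% of all genes were below 0 and 32.4% equal, and in that of the subunits, 5.98 to 11.6, 39.8% were below 0 and 26.2% equal. Assembly factors under other names, given below, were lower more often than those under the prefixes, so the contrast is weaker for them. They ran from -0.34 for Uqcc2 to 0.43 for Coa4. The difference between subunits and assembly factors was not tested.

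**Figure D2:**
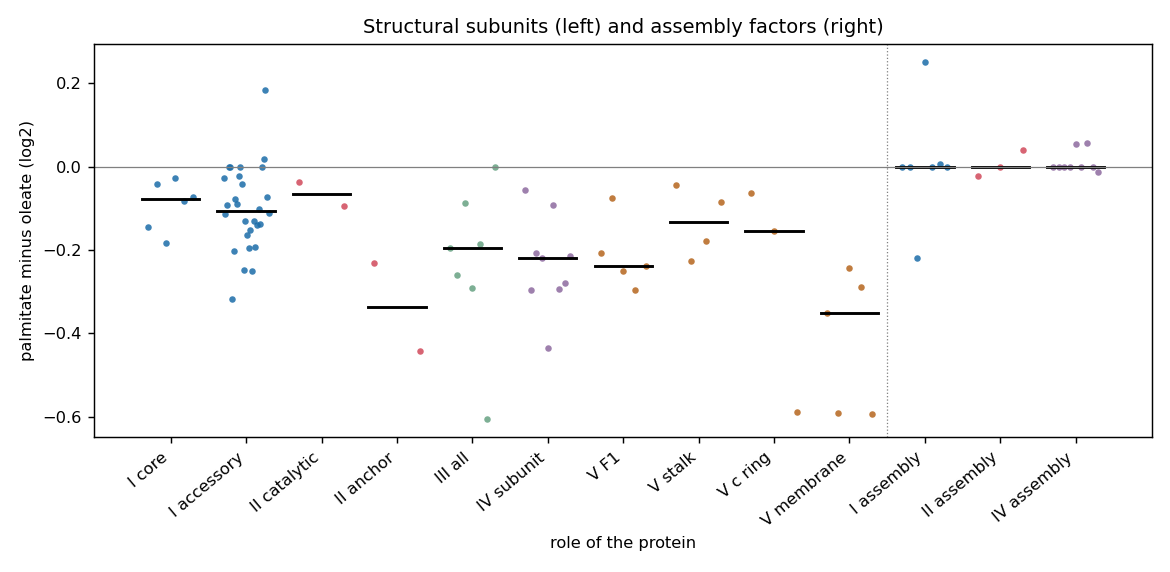
Palmitate minus oleate (log2, vertical axis) for members past the filter by role of the protein (horizontal axis), with tissue isoforms, Cox7a2l and Ndufa4 left out; points are genes, bars are medians, and the dotted line parts structural subunits from assembly factors. The points of the complex IV and V subunits all lie below 0, and the assembly factors lie around 0.

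In complex I the differences were small in all parts of the enzyme. The 6 core subunits, which carry the flavin and iron-sulfur centres, were all lower with palmitate than with oleate, from -0.18 for Ndufs7 to -0.03 for Ndufs8. Of 28 accessory subunits 22 were lower, 4 equal and 2 higher, with a median of -0.11. Ndufa3, at 8.37 on the oleate, 8.35 on the elaidate and 8.06 on the palmitate array, was the lowest of them at -0.32, just short of the fold limit. Ndufs5 went the other way against oleate, with 8.97 on the oleate, 9.23 on the elaidate and 9.16 on the palmitate array. The oleate array was thus the low one for this gene. Ndufb3 stood at 6.52, 6.78 and 6.33 on the same arrays and was the accessory subunit with the lowest difference for palmitate minus elaidate, at -0.46. Ndufb9 was at 11.20, 11.29 and 11.10, and Ndufa8 differed by -0.02 and by 0.01 for palmitate minus elaidate. Ndufaf4, an assembly factor, had its highest value with palmitate, at 7.45, 7.56 and 7.70.

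Ndufa4 carries a complex I name but its protein is now placed in complex IV. It stood at 11.24 on the oleate, 11.31 on the elaidate and 10.83 on the palmitate array, a palmitate minus oleate difference of -0.41 and the lowest under the Nduf prefix. Palmitate was the low array, and the other 2 were close. Its paralogue Ndufa4l2, a gene known to be induced in hypoxia, did not pass the filter, with 2.79, 2.79 and 2.85.

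In complex II, the membrane anchors and the catalytic subunits stood apart in size. Sdhd, an anchor that helps to bind ubiquinone, was at 9.79 on the oleate, 9.91 on the elaidate and 9.35 on the palmitate array, a difference of -0.44 against oleate and -0.56 against elaidate. Sdhc, the other anchor, was at 9.87, 9.91 and 9.63, or -0.23 and -0.28. Both were lowest on the palmitate array. Sdhb, the iron-sulfur subunit, differed by -0.10 and -0.08, and Sdha, the flavoprotein that oxidises succinate, by -0.04 and -0.03. For elaidate minus oleate the 4 lay between -0.01 and 0.11. The assembly factors Sdhaf1, Sdhaf2 and Sdhaf3 were between -0.02 and 0.04 for palmitate minus oleate.

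Complex III held the member with the lowest palmitate minus oleate difference, Uqcrh, the hinge protein that sits beside cytochrome c1. Its mean over 2 probe sets was 6.41 on the oleate, 6.44 on the elaidate and 5.80 on the palmitate array, a difference of -0.61, or 1.52-fold lower. The 2 probe sets were unlike. The first stood at 9.70, 9.83 and 8.62, a difference of -1.08, past 2-fold. The second was at 3.11, 3.05 and 2.98, under the filter value, and differed by -0.13. The size for Uqcrh thus depends on whether the second probe set is taken in. Uqcrc1, a core protein, was at 9.75, 9.63 and 9.46, with a difference of -0.29, and Uqcrfs1, the Rieske iron-sulfur protein, at -0.18. Uqcr11 and Uqcr10, small accessory subunits, stood at -0.26 and -0.19, and Uqcrb, which helps to bind ubiquinone, at -0.09. Uqcrq was equal on all 3 arrays.

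Complex IV fell into 3 kinds of gene. All 9 widely expressed structural subunits were lower with palmitate than with oleate, between -0.43 and -0.06, with a median of -0.22. Cox6b1, which lies where the monomers of the complex IV dimer meet, was the lowest, with 11.12 on the oleate, 11.10 on the elaidate and 10.68 on the palmitate array. Cox5a followed at -0.30, Cox7a2 at -0.29, Cox7b at -0.28 and Cox8a at -0.22, and Cox4i1, a regulatory subunit, was nearest to 0 at -0.06. The 9 assembly factors were between -0.01 for Cox20 and 0.06 for Cox18, with 6 equal on both arrays, among them the copper chaperone Cox17 and the haem A synthesis enzymes Cox10 and Cox15. Cox20 was highest on the elaidate array, at 6.97 on the oleate, 7.21 on the elaidate and 6.96 on the palmitate array. Cox7a2l, a factor of supercomplex formation, differed by 0.01.

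The tissue isoforms of complex IV included the member with the highest difference in every comparison. Cox6a2, the isoform of subunit 6a known from heart and skeletal muscle, stood at 4.30 on the oleate, 4.97 on the elaidate and 6.88 on the palmitate array. The 3 arrays were well apart for this gene, with elaidate between the others. The differences were 2.58 for palmitate minus oleate, 1.91 for palmitate minus elaidate and 0.67 for elaidate minus oleate. As folds, the values were 5.98-fold higher with palmitate and 1.59-fold higher with elaidate than with oleate, and 3.76-fold higher with palmitate than with elaidate. No detection call was used here, and the oleate value lay just above the filter value of 4.14. With 1 array for each fatty acid, these folds are uncertain and carry no lower or upper limit. Cox6a2 is measured by 1 probe set, so no second one bears on it.

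The widely expressed counterpart of Cox6a2 was not higher. Cox6a1 had a mean of 8.38 on the oleate, 8.38 on the elaidate and 8.16 on the palmitate array, a palmitate minus oleate difference of -0.22. Its 2 probe sets disagreed, with differences of -0.01 and -0.43. The other muscle isoforms did not share the pattern of Cox6a2: Cox7a1 was at 6.30, 6.30 and 6.12, and Cox8b was equal at 2.84 on all 3 arrays. Cox4i2, Cox6b2 and Cox7b2 were also equal on all arrays, and Cox8c was at 3.06, 3.27 and 3.27, all under the filter value. Of 5 markers of striated muscle, Ckm, Myh4, Acta1, Tnnt3 and Myl1, 2 passed the filter, their levels ran from 2.22 to 4.44 over the 3 arrays, and the difference furthest from 0 was 0.05, for Acta1, on the elaidate and palmitate arrays against oleate.

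**Figure D3:**
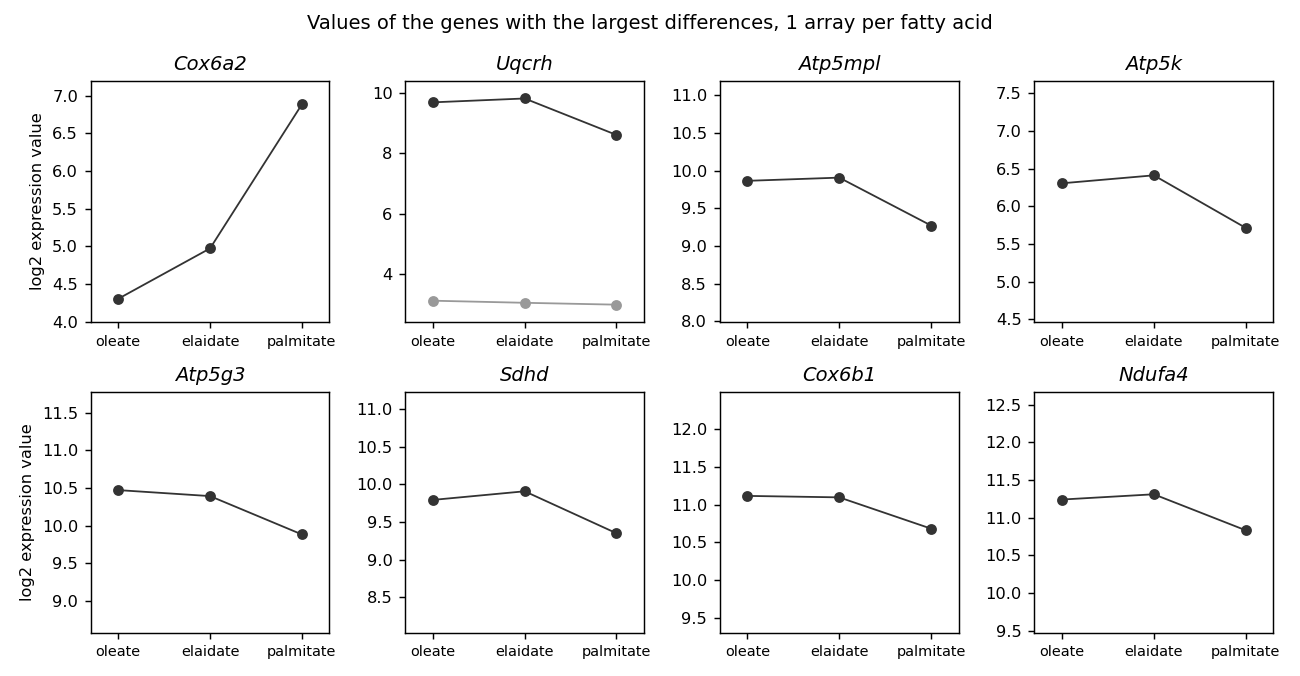
Log2 expression values (vertical axis) of 8 members on the oleate, elaidate and palmitate arrays (horizontal axis), 1 point per array and probe set; both probe sets of Uqcrh are drawn, on a longer axis than the other panels. Cox6a2 is highest on the palmitate array and the other 7 genes are lowest on it.

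Complex V was lower on the palmitate array by the means of its genes. All 17 genes were below 0 in both palmitate comparisons, from -0.59 to -0.05 against oleate. For Atp5h this rests on averaging. Its 4 probe sets ran from -0.17 to 0 against oleate, and the brightest was equal, at 10.45 on both arrays. The probe sets of Atp5g1 ran from -0.04 to 0 against elaidate. The small membrane subunits were lowest as a group, with a median of -0.35 over 5 genes. Atp5mpl stood at 9.87 on the oleate, 9.91 on the elaidate and 9.27 on the palmitate array, and Atp5k, which takes part in dimers of the enzyme, at 6.31, 6.41 and 5.71. Both differences against oleate were -0.59, or 1.51-fold lower, and those against elaidate -0.64 and -0.70. Palmitate was the low array for both. Atp5j2 differed by -0.35, just past the fold limit, Atp5md by -0.29 and Atp5l by -0.24, where 6 probe sets of Atp5l lay between -0.27 and -0.23.

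The c ring, which turns as protons pass, is encoded by 3 genes whose mature proteins are identical. Their differences were unlike. Atp5g3 was at 10.47 on the oleate, 10.39 on the elaidate and 9.89 on the palmitate array, a difference of -0.59, while Atp5g2 stood at -0.15 and Atp5g1 at -0.06. The catalytic F1 head had a median of -0.24 over 5 genes. Atp5b, its catalytic beta subunit, was at 11.65, 11.62 and 11.57, a difference of -0.08, and Atp5d, Atp5c1, Atp5e and Atp5a1 were between -0.30 and -0.21. The 4 genes of the peripheral stalk were from -0.23 for Atp5j to -0.05 for Atp5h.

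Several members rest on more than 1 probe set, and the probe sets of a gene may share sequence with each other or with processed copies. For 26 members with several probe sets, the palmitate minus oleate differences of a gene's probe sets spread over a median of 0.08, and over at most 0.1 in 15 of the 26. The spread was 0.95 for Uqcrh, 0.42 for Cox6a1 and 0.33 for Ndufb5. In Uqcrh and Ndufb5, 1 of 2 probe sets was under the filter value.

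Other genes of the pathway, from lists fixed with the members, were set beside them. Cyc1, the cytochrome c1 of complex III, differed by -0.25 for palmitate minus oleate, Atpif1, the inhibitor of the ATP synthase, by -0.08, and cytochrome c itself, Cycs, by -0.02. Of 22 assembly factors under other names past the filter, 10 were lower, 8 equal and 4 higher, with a median of 0, from Uqcc2 at -0.34 to Coa4 at 0.43. Of 12 enzymes of the tricarboxylic acid cycle 7 were lower, 4 equal and 1 higher, with a median of -0.03. The exception was Dld, the shared dihydrolipoamide dehydrogenase, at 9.14 on the oleate, 9.42 on the elaidate and 10.01 on the palmitate array, or 0.87. Of 12 regulators of mitochondrial gene expression past the filter, 4 were lower, 3 equal and 5 higher. Tfam, which packages and transcribes mitochondrial DNA, stood at 0.50, the GABP subunits Gabpb1 and Gabpa at 0.32 and 0.27, the coactivator Ppargc1b at -0.33, Nrf1 at 0.02 and Yy1 was equal. Ppargc1a did not pass the filter, at 2.15 on each array.

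The mitochondrial ribosomal proteins, 74 genes of the same compartment, spread to both sides. They had 27 lower, 28 equal and 19 higher, a median of 0 and a range from -0.94 for Mrps21 to 0.67 for Mrpl19. Past the fold limit 13 of the 74 were lower and 4 higher. Among all genes past the filter, 11.7% were lower past that limit and 9.88% higher. The 71 structural subunits, with 7 lower past the limit and none higher, had a narrower range and a median of -0.15. These are descriptions of 2 arrays, and the difference between both lists was not tested.

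**Figure D4:**
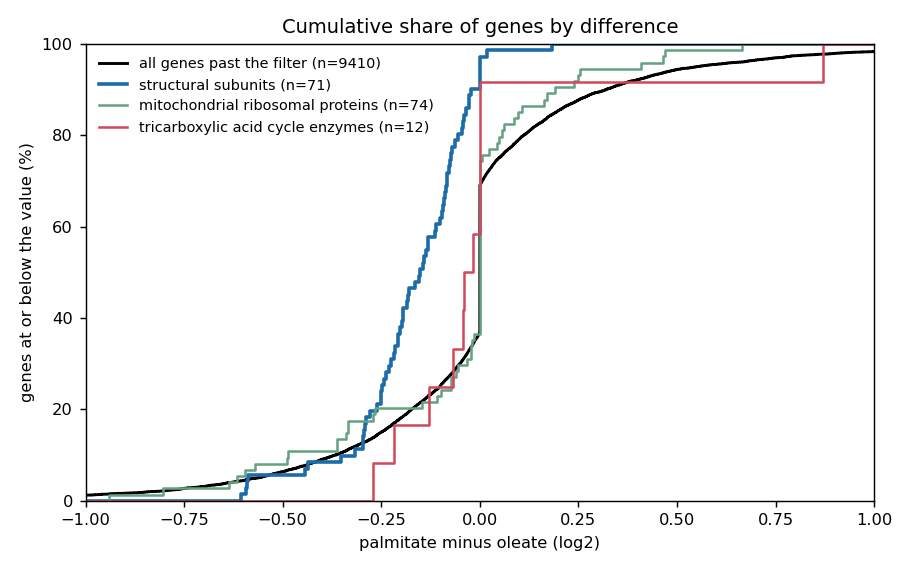
Cumulative share of genes (vertical axis, percent) at or below each palmitate minus oleate difference (horizontal axis, log2, drawn from -1 to 1) for all genes past the filter, structural subunits, mitochondrial ribosomal proteins and enzymes of the tricarboxylic acid cycle. The curve of the structural subunits lies mostly to the left of 0, with 64 of 71 genes below 0. The structural subunits are themselves part of all genes past the filter.

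Macrophage markers were also lower on the palmitate array. Of 9, 7 were lower and 2 equal for palmitate minus oleate, beside 36.8% of all genes past the filter that were lower. The median was -0.32, from Lyz2 at -0.83 to Cd68 and Ptprc, which were equal. For palmitate minus elaidate their median was -0.30, and for elaidate minus oleate -0.04. In RNA of a whole culture of this line, a change in some of the cells and a change in all of them cannot be told apart. The part of these markers in the lower values of the respiratory genes was not tested.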

How the data were processed

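Total RNA of 3 cultures, 1 for each fatty acid, was labelled by a whole-transcript sense target assay and read on Affymetrix arrays, per the labels' protocols. The deposited log2 values, 1 per probe set, were made by the authors with RMA, per the submitters' processing notes, which give no version. They were used as deposited. Arrays have no read depth, and their number limits the precision. Of 35556 probe sets, 21218 had 1 symbol in the platform annotation, which can be old. All 101 members matched RefSeq by gene identifier; 10 probe sets that pair a symbol of these prefixes with another were not used. The mean of a gene's probe sets was taken. Values were called equal within 1e-06. Such values were common: of all genes past the filter, 32.3% were equal for palmitate minus oleate and 44.1% for elaidate minus oleate. Equal summarised values of a gene are therefore not read as a measured absence of change.

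Differences were taken between arrays, and genes that differed by at least 0.32 on the log2 scale were counted. Named genes were, for each complex and comparison, the 2 lowest and 2 highest members past the filter, the member with the highest mean, those at least 1.5-fold different, tissue isoforms with their counterparts and the Sdh subunits; further members and list genes were named after their values were seen. Levels of different genes served only for the filter, for this rule and to pick genes of a level range. Roles of the proteins come from textbook knowledge. The members and lists were chosen with earlier results of these data known. Alternatives were other filters, centring, cyclic loess with a span of 0.7 and 3 iterations (limma 3.58.1, R 4.3.3), the brightest probe set of a gene, structural subunits only, other fold limits and Ndufa4 in complex IV. Calculations used Python 3.11.15, pandas 2.3.3 and numpy 2.4.6. The counting step was tested on simulated data.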

Additional observations from a re-analysis of the deposited data

How the results depend on the processing

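Members below 0 numbered 66 to 70 for palmitate minus oleate under the filters, the scalings and the choices of probe set, and 60 with a limit of 0.05 below 0, beside 30.1% of all genes. For elaidate minus oleate the count of 28 was 55 after cyclic loess, beside 65.8% of all genes, and 10 (10.6%) with a limit of 0.05 below 0, beside 14.8%; both turn round its order against all genes. Past the limit of 0.32, 8 members were lower against oleate and 9 against elaidate on the palmitate array. A limit of 1.5-fold left 4 and 3 of 94 members, beside 445 and 417 of all 9410 genes. One of 2-fold left 0 and 0 members, beside 115 and 82 of all genes. With the probe set of the highest mean, the members lower past 0.32 were 11 and 13 of 95, beside 12.2% and 11.8% of all genes. With probe sets past the filter value they were 9 and 10 (9.47% and 10.5%), beside 11.9% and 11.6%, and without a filter 8 and 9 (7.92% and 8.91%), beside 6.14% and 5.91%. So the share past the limit lies above or below that of all genes by the setting. With structural subunits only, the medians against oleate and elaidate were -0.16 and -0.18 in complex II and -0.22 and -0.26 in complex IV, because assembly factors near 0 were left out. Without members equal on both arrays the median of complex IV was -0.18 and -0.19, and that of complex I for elaidate minus oleate 0.056. The other 173 medians and counts that answer a comparison moved by at most 0.05 or 1.5 times, limits set after seeing the data, as were the settings for counts below 0, the comparison with genes at or above 7.44 and the probe sets past the filter value. By prefix, the medians of complexes II and IV are near enough to 0 that such moves change their order. The move of complex IV with structural subunits only was larger. Complex IV went from the highest median to next to the lowest against oleate. Against elaidate it went from the highest to the lowest, below complex V. No named gene past the limit changed sign under centring, cyclic loess or the choice of probe sets. No paired analysis was possible because each fatty acid has 1 array.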
